A study of Mus musculus with 44 samples.

Results

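The 10 genes described here are inducible acute phase response genes of the mouse, taken by name from a fixed list out of the 38202 genes in the deposited tables: Saa1, Saa2 and Saa3 (serum amyloid A proteins), Orm1 and Orm2 (orosomucoids), Lcn2 (lipocalin 2), Crp and Apcs (the pentraxins C-reactive protein and serum amyloid P component), and Itih3 and Itih4 (heavy chains of the inter-alpha-trypsin inhibitor family). The list was fixed by name and not by a threshold on measured values, although earlier results of these data were known when it was drawn up. They were followed in liver and skeletal muscle of Slc16a13 knockout (KO) and wild-type (WT) mice, mouse by mouse.

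The acute phase response is the change in plasma protein synthesis by the liver that follows infection, injury or inflammation. Interleukin 6, signalling through Stat3, and interleukin 1, signalling through NF-kB, act on hepatocytes together with glucocorticoids and the C/EBP factors, and positive acute phase genes are then transcribed more. In the mouse, serum amyloid A and Apcs are major acute phase reactants, whereas Crp is a minor one, in contrast to man. Saa3 and Lcn2 are also made outside hepatocytes, by macrophages and adipocytes for Saa3 and by neutrophils and epithelia for Lcn2.

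All mice were male and on a C57BL/6N background. Slc16a13 KO mice carry a constitutive CRISPR/Cas9 deletion of the promoter and first exons of Slc16a13, which encodes a monocarboxylate transporter, and WT mice have the intact gene. Both genotypes were fed a high-fat diet (HFD) for 15 weeks and were killed at 20 weeks of age, so that there is no group on another diet and no group given an inflammatory stimulus. RNA-Seq was performed on liver and muscle of 11 WT and 11 KO mice, which gave 44 libraries, and mice are named here by genotype and animal number.

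Reads counted on genes ranged from 20150712 to 33733103 per library in WT liver, from 20517872 to 31084170 in KO liver, from 21810239 to 33807727 in WT muscle and from 21703841 to 35218243 in the muscle libraries labelled KO. Slc16a13 was counted 99 to 302 times in WT livers and 0 to 8 times in KO livers. In muscle it was counted 4 to 22 times in WT libraries and 11 to 40 times in the libraries labelled KO, which goes against the label, so that these are called the muscle libraries labelled KO throughout. In 4 KO livers (532, 583, 602 and 611) long genes had fewer reads relative to short genes than in any other liver, with slopes of relative log2 level on log2 gene length of -0.54 to -0.08, against 0.04 to 0.10 in WT livers. All 15 hepatocyte markers were detected in livers of both genotypes and summed to between 108485 and 186215 CPM (counts scaled to library size), and the 10 myocyte markers summed to at least 160007 CPM in every muscle library. The sequencing pool of each library is not named in the labels, so that pool and group cannot be told apart. Levels are given below as CPM after TMM normalization within a tissue, and as RPKM (the authors' values, normalized for depth and transcript length) where genes are compared with each other.

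Promoter sequences are shown for Saa1, Saa2, Orm2 and Lcn2, which varied together among WT livers. Those of Saa3 and of Crp, which was nearly level in the same livers, are shown beside them. The promoter of Apcs, which also varied with Saa1, was searched and is not shown. RefSeq promoters on build GRCm38.p6 were found for 9 of the 10 genes, all but Orm1. In each sequence, which holds the 250 bases before the transcription start and reads 5′ to 3′ on the gene's strand, capitals mark a match to the C/EBP letters TTGCNNAA on either strand.
Saa1 promoter, chr7:46742981-46743230, minus strand: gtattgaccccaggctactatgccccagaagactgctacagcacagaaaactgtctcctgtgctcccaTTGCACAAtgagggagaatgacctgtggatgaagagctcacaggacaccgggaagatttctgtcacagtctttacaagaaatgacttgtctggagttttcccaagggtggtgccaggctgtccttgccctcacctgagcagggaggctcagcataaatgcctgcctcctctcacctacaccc
Saa2 promoter, chr7:46751583-46751832, plus strand: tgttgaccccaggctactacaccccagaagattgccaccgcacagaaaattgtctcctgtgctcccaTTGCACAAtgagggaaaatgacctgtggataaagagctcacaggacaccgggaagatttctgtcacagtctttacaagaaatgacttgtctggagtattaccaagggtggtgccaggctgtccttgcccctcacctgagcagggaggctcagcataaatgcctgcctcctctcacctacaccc
Orm2 promoter, chr4:63362199-63362448, plus strand: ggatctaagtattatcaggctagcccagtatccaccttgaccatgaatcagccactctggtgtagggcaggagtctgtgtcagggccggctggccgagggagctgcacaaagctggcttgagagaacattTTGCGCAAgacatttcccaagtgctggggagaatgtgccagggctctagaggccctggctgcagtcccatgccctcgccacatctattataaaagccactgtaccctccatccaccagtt
Lcn2 promoter, chr2:32387740-32387989, minus strand: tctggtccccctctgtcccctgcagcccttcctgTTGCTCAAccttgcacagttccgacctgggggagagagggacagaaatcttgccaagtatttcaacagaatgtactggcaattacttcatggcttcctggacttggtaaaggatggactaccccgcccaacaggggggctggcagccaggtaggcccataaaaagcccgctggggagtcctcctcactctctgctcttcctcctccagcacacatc
Saa3 promoter, chr7:46715677-46715926, minus strand: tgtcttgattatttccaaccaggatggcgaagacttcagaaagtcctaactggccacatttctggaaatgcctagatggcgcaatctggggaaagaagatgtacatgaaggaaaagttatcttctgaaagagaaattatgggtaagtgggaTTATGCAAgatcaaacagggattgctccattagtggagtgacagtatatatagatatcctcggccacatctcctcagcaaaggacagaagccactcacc
Crp promoter, chr1:172697806-172698055, plus strand: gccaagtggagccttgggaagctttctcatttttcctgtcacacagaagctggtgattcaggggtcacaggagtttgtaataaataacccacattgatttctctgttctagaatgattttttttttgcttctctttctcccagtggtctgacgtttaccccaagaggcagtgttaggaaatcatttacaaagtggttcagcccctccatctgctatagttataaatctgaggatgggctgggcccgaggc

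The C/EBP letters were found in 5 of the 9 promoters, those of Saa1, Saa2, Saa3, Orm2 and Lcn2, and in 9.56% of 32851 RefSeq promoters of the same length. The Saa1, Saa2 and Lcn2 matches lie on the gene's strand and the Saa3 match on the other strand, whereas the Orm2 match reads the same on both. The matches did not follow correlation with Saa1 among WT livers throughout. Apcs had r = 0.79 and no C/EBP match, whereas Saa3 had r = 0.49, not past the adjusted threshold, and a match. The STAT letters TTCNNNGAA were found in the promoters of Apcs and Itih4 (2 of 9) and in 7.02% of all promoters, and the letters CTGGGAA of the interleukin 6 response element in that of Apcs (1 of 9) and in 9.10% of all. A single NF-kB pattern was also searched, and was in none of the 9 windows and in 1.41% of all. A match of letters is a description of the sequence and not a measured binding site, and the absence of a match says only that these letters are not in this window. The Saa1 and Saa2 promoters were identical at 238 of 251 aligned positions (94.8%), whereas Saa1 and Saa3 were identical at 132 of 263 (50.2%).

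Saa1 and Saa2 mRNAs were also nearly identical, at 93.9% of aligned bases of the GENCODE M21 transcripts, and Orm1 and Orm2 were identical at 91.0%. Of all stretches as long as the 85-base reads, 2.86% of those in Saa1 also occur in Saa2, and 11.1% of those in Orm1 also occur in Orm2. The split of reads within these pairs is therefore uncertain, although the deposited RPKM table carries the word unique in its name. The rule for reads that match both genes was not given in the sources used here. For Saa3 the share was 0.555%, with unrelated genes, and transcripts of Lcn2, Crp, Apcs, Itih3 and Itih4 shared none with another gene.

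Levels per length were ordered the same way in WT and KO livers at the top and at the bottom. In WT livers the median was 739 RPKM for Itih4, 420 for Orm1, 311 for Itih3, 255 for Crp, 191 for Saa1, 82.1 for Saa2, 58.7 for Apcs, 47.7 for Lcn2, 31 for Orm2 and 12.5 for Saa3. The ranges over mice of neighbours in this order overlapped for 8 of 9 pairs, and only Itih4 (682 to 1446 RPKM) and Orm1 (249 to 649 RPKM) were apart. In KO livers the ranges of all 9 neighbouring pairs overlapped, and Apcs (46.2 RPKM) and Saa2 (42.1 RPKM) stood in the reverse order of medians. The less variable genes, Itih4, Orm1, Itih3 and Crp, thus held the highest median levels in both genotypes.

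The serum amyloid A genes, whose products are carried on high-density lipoprotein, were at very different levels and spreads. In WT livers, Saa1 was lowest at 37.6 CPM, had a median of 111 CPM and reached 779.8 CPM in mouse WT 616. In KO livers, Saa1 was lowest at 46.5 CPM, had a median of 103 CPM and reached 2546 CPM in mouse KO 597, followed by 771 CPM in KO 532. The genotypes overlapped over nearly the whole range, and apart from these 3 mice no liver was above 163 CPM.

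Saa2 ranged from 10.8 to 238 CPM in WT livers (median 46.7) and from 12.5 to 1774 CPM in KO livers (median 27.6). The highest values belonged to the same mice, WT 616 on the WT side and KO 597 and KO 532 (393 CPM) on the KO side. Counts of Saa2 were 0.267 to 0.521 of those of Saa1 in WT livers, and 0.161 (KO 598) to 0.697 (KO 597) in KO livers.

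Saa3, the member known for extrahepatic expression, was scarce and behaved differently. It ranged from 3.10 to 8.74 CPM in WT livers (median 6.47) and from 2.32 to 94.2 CPM in KO livers (median 6.90). The highest value was that of KO 532, and the next KO liver was at 12.2 CPM. KO 597, the liver with the most Saa1, was at only 1.11 times the KO median of Saa3.

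**Figure D1:**
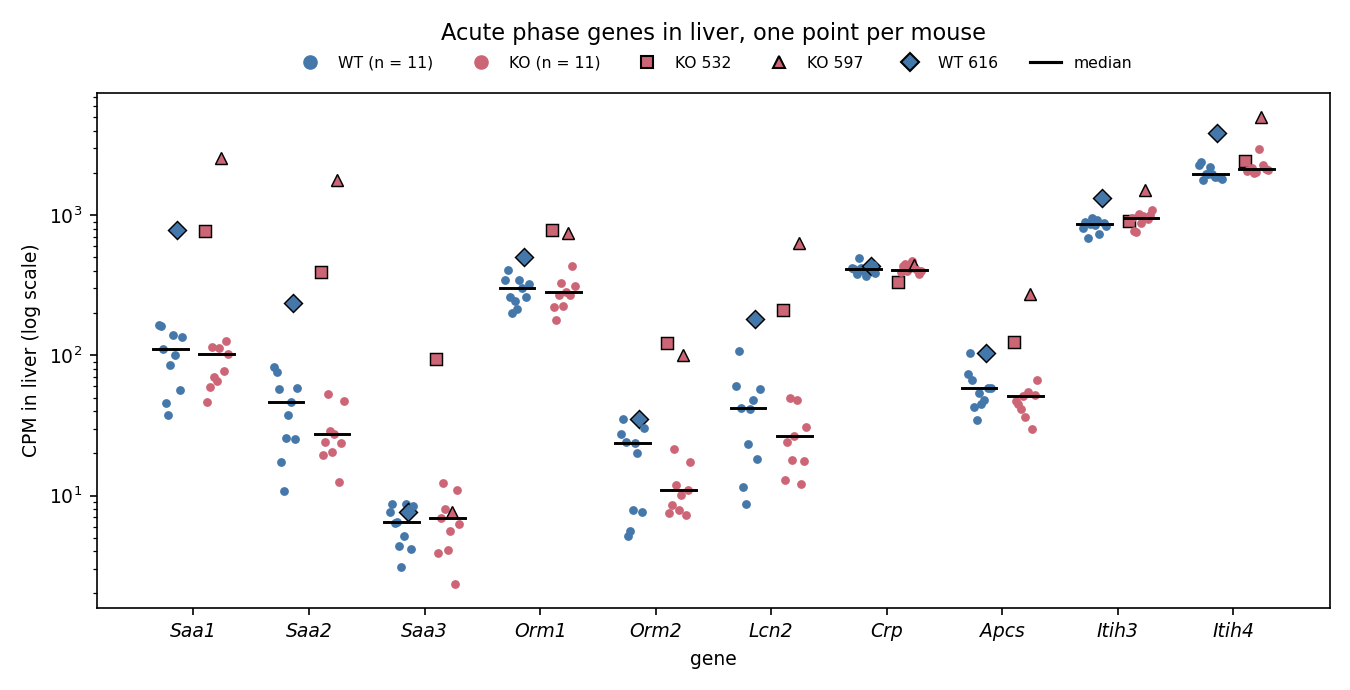
Level of the 10 genes in each liver, in CPM on a log scale, with WT mice in blue, KO mice in red (11 each) and black lines at the group medians. KO 597, KO 532 and WT 616 lie above the other mice for Saa1, Saa2 and Lcn2, whereas all livers lie between 335 and 496 CPM for Crp.

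The orosomucoids, plasma lipocalins that bind drugs and modulate immune cells, differed in how much they varied. Orm1 ranged from 201 to 499 CPM in WT livers (median 304) and from 180.0 to 786 CPM in KO livers (median 282). Orm2 ranged from 5.18 to 35.2 CPM in WT livers (median 23.5) and from 7.24 to 122 CPM in KO livers (median 10.9). KO 532 and KO 597 were the highest KO livers for both genes, at 786 and 741 CPM for Orm1 and at 122 and 100 CPM for Orm2. The count of Orm2 relative to Orm1 was 0.0230 to 0.0938 in WT livers and 0.025 to 0.155 in KO livers.

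Lcn2 encodes a protein that sequesters bacterial siderophores. It ranged from 8.65 to 183 CPM in WT livers (median 42) and from 12 to 631 CPM in KO livers (median 26.5). The highest livers were again KO 597, KO 532 (209.9 CPM) and WT 616, and the next was WT 528 at 107 CPM.

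The pentraxins, which bind phosphocholine and other ligands on microbes and dead cells, were unlike each other. Apcs ranged from 34.3 to 104 CPM in WT livers (median 58.2) and from 29.8 to 276 CPM in KO livers (median 51.0), highest in KO 597 and then in KO 532 (125 CPM). Crp ranged from 366 to 496 CPM in WT livers (median 413) and from 335 to 475 CPM in KO livers (median 409). KO 532 had the lowest Crp level of all livers and KO 597 was at 1.09 times the KO median.

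Itih3 is a heavy chain that is transferred to hyaluronan of the extracellular matrix, and Itih4 is a related plasma glycoprotein. Itih4 ranged from 1792 to 3841 CPM in WT livers (median 1976) and from 1996 to 5045 CPM in KO livers (median 2125). Itih3 ranged from 682 to 1331 CPM in WT livers (median 869) and from 753.5 to 1519.7 CPM in KO livers (median 956.5). WT 616 and KO 597 were the highest mice of their genotype for both genes. KO 532 was near the KO median in CPM, at 1.14 times for Itih4 and 0.947 times for Itih3. By RPKM, KO 532 was at 1782.3 for Itih4, against a KO median of 867.4, and at 346.6 for Itih3, against 341.1. CPM and RPKM thus place this liver differently for Itih4.

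The spread between mice separated the genes more than genotype did. The SD of log2 CPM over WT livers was 1.32 for Lcn2, 1.22 for Saa2, 1.18 for Saa1 and 1.09 for Orm2, each larger than that of at least 99.1% of the 13005 genes tested in liver, whose median SD was 0.17. It was 0.50 for Apcs, 0.49 for Saa3, 0.39 for Orm1, 0.32 for Itih4 and 0.25 for Itih3. For Crp it was 0.12, larger than that of 27.2% of genes. In KO livers the SDs were 2.15 for Saa2, 1.76 for Saa1 and for Lcn2, 1.44 for Orm2, 1.36 for Saa3 and 0.14 for Crp, with a median of 0.35 over all genes.

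Individual mice accounted for the widest values. KO 597 was the highest KO liver for 6 of 10 genes (Saa1, Saa2, Lcn2, Apcs, Itih3 and Itih4), at 64.2 times the KO median for Saa2, 24.8 times for Saa1, 23.8 times for Lcn2 and 5.40 times for Apcs, and stood at 9.15 times for Orm2. KO 532 was the highest for Saa3, Orm1 and Orm2, at 13.6, 2.79 and 11.1 times the median, and reached 14.2 times for Saa2 and 7.91 times for Lcn2. WT 616 was the highest WT liver for 6 of 10 genes, at 7.02 times the WT median for Saa1, 5.09 times for Saa2 and 4.36 times for Lcn2. At the other end, WT 536 and WT 537 were each under 0.5 of the WT median for 4 genes, with Lcn2 at 0.274 and 0.206 times and Orm2 at 0.220 and 0.237 times.

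**Figure D2:**
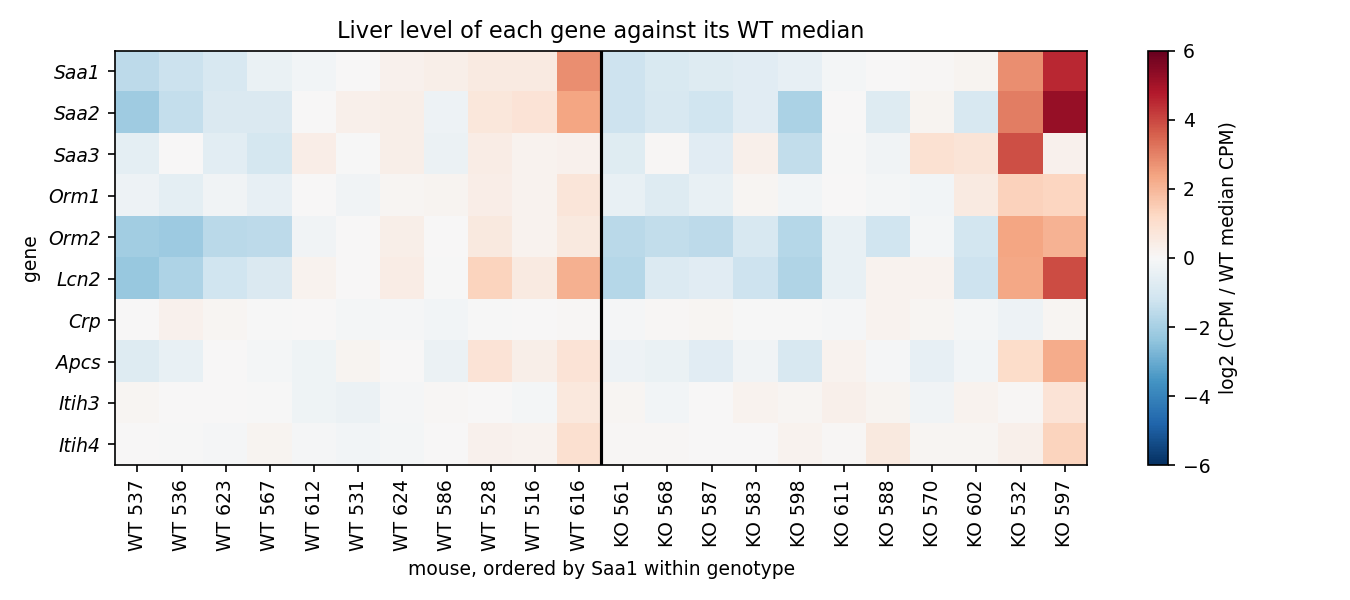
Level of each gene (rows) in each liver (columns, ordered by Saa1 within genotype) as log2 of CPM over the WT median, red for higher and blue for lower. KO 597, KO 532 and WT 616 are red for Saa1, Saa2 and Lcn2, KO 532 alone is strongly red for Saa3, and the Crp row is pale throughout.

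Other measures of the same libraries moved with these values. KO 532 had the lowest slope on gene length of all livers (-0.54), whereas KO 597 (0.0869) and WT 616 (0.049) lay within the range of the WT livers. In KO 532 the macrophage and Kupffer cell markers summed to 1310.1 CPM, the highest of the KO livers (lowest 411, median 604), against 459 to 610.3 CPM over WT livers, and 7 of 12 were at their highest of 22 livers, among them Marco at 103 CPM and Clec4f at 247 CPM. The neutrophil markers summed to 21.3 CPM in KO 532, against a median of 4.91 CPM over KO livers and 3.31 to 9.65 CPM over WT livers, and 8 of 12 were at their highest there, with S100a8 at 3.98 CPM. In KO 597 none of the markers of either list was at its highest, and the sums were 573 and 6.25 CPM. WT 616 also held none of these markers at its highest of 22 livers, with sums of 610.3 and 6.67 CPM. Its macrophage sum was the highest of the WT livers, as was its Marco level (19.3 CPM, WT median 6.79 CPM). No marker of these lists was at 0 in all livers of a genotype. In bulk tissue, more cells of a type and more RNA per cell cannot be told apart. The part of these cells and of gene length in the levels of KO 532 itself was not tested. Fold changes between genotypes with gene length removed are given below.

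Among WT livers, 5 of the 9 other genes were correlated with Saa1 on the log2 CPM scale (Pearson and Spearman, two-sided permutation tests with 100000 resamples, Benjamini-Hochberg over the 18 relations of both genotypes, n = 11). They were Saa2 (r = 0.96, adjusted p = 0.00024; rho = 0.95, adjusted p = 0.00063), Lcn2 (r = 0.93, adjusted p = 0.00018; rho = 0.93, adjusted p = 0.00090), Orm1 (r = 0.88; rho = 0.94), Orm2 (r = 0.82; rho = 0.91) and Apcs (r = 0.79; rho = 0.75). Without the 2 livers farthest from the median of Saa1, r was 0.90 for Saa2, 0.94 for Lcn2, 0.86 for Orm1, 0.94 for Orm2 and 0.57 for Apcs. Crp had r = -0.26 (adjusted p = 0.44), and r = -0.74 without the 2 farthest livers. That last value was -0.78 with gene length removed and -0.41 with log2(RPKM + 0.1), and 0.15 in KO livers. Saa3 had r = 0.49 (adjusted p = 0.14), and 0.46 without the 2 farthest livers. The values without these livers were not tested. Itih4 had r = 0.80 (adjusted p = 0.024) but rho = 0.46 (adjusted p = 0.20), and r = 0.38 without the 2 farthest livers, and passed both tests with log2(RPKM + 0.1) (r = 0.87, rho = 0.84), where 6 of 9 genes passed.

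Among KO livers, 4 of 9 genes passed both tests: Saa2 (r = 0.97, rho = 0.70), Orm2 (r = 0.93, rho = 0.77), Orm1 (r = 0.91, rho = 0.85) and Itih4 (r = 0.83, rho = 0.78). Lcn2 and Apcs passed with r (0.95 and 0.94, adjusted p = 0.0013 and 0.0035) and not with rho (0.66 and 0.64, adjusted p = 0.056 and 0.062). The 2 livers farthest from the Saa1 median were KO 597 and KO 532, and without them r was 0.71 for Orm1, 0.65 for Orm2, 0.57 for Lcn2, 0.51 for Saa2, 0.46 for Itih4 and 0.32 for Apcs. On this scale r was thus lower for each of these genes without those mice, lowest for Apcs and next for Itih4. These values were not tested, and Itih4 passed the rank test over all KO livers. For Itih4 r without the 2 farthest livers was 0.67 with gene length removed and 0.72 with log2(RPKM + 0.1). Under both of these alternatives Lcn2 passed with rho as well (0.78, adjusted p = 0.017 and 0.015), and 5 of 9 genes passed in KO livers. In the 7 KO livers without a low slope, exact permutation tests left only Orm1 past both thresholds (r = 0.97, adjusted p = 0.013; rho = 0.93, adjusted p = 0.024; n = 7).

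**Figure D3:**
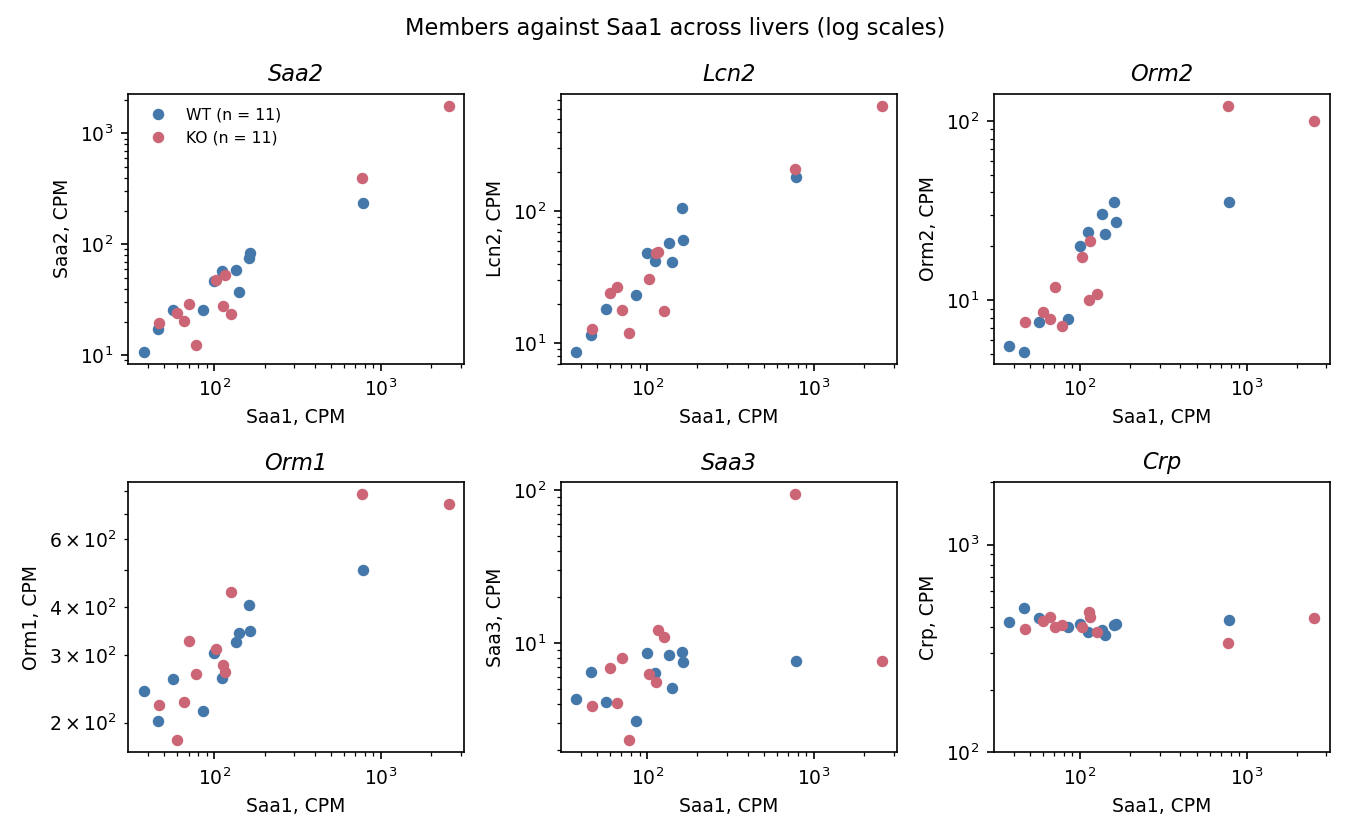
Level of 6 genes against Saa1 in each liver (CPM, log scales), WT in blue and KO in red, 11 mice each. Saa2, Lcn2, Orm2 and Orm1 are higher in livers with more Saa1, and Saa3 has a single high point (KO 532). Crp stays between 335 and 496 CPM across the whole range of Saa1.

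The genes most like Saa1 were sought among 10764 non-member genes of liver by Spearman's rho over the 11 WT livers, and rho over the 11 KO livers is given beside it as a description. They were Hpx, hemopexin, a heme-binding acute phase protein (0.99 in WT and 0.85 in KO livers), Sult2a7, a sulfotransferase (0.99 and 0.59), Lgmn, the protease legumain (0.97 and 0.62), Prg4, proteoglycan 4 (0.96 and 0.56), and Spp1, osteopontin (0.95 and 0.50). Those most like Lcn2 were Apoc2 (0.95 and 0.43), Rnd2 (0.95 and 0.72), Prg4 (0.95 and 0.70), Col15a1 (0.95 and 0.72) and Spp1 (0.94 and 0.29). In KO livers Hpx had a higher rho with Saa1 than 99.8% of the genes ranked, and Spp1 a higher rho with Lcn2 than 86.1%.

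The comparison of KO with WT livers asked whether deletion of Slc16a13 under HFD came with a different level of these genes. None of the 10 genes passed an adjusted p of 0.05 (edgeR quasi-likelihood test, Benjamini-Hochberg over 13005 genes), where 0.0231% of all genes did. At an unadjusted p under 0.05 there were 2, Saa2 and Saa3, against 12.9% of all genes. The fitted log2 fold change was above 0 for 9 of 10 genes, with a median of 0.42, against -0.01 over all genes. The genes correlated with Saa1 do not give separate directions. The medians gave another direction, since the KO median was below the WT median for 7 genes and above it for 3, while the KO mean was above the WT mean for 9. All 10 genes overlapped between genotypes. The share of all genes that overlap was not computed, so that this count does not set the 10 apart.

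Saa2 had a log2 fold change of 1.85 ± 0.84 (SE, adjusted p = 0.38 from edgeR) and Saa1 of 1.19 ± 0.71 (adjusted p = 0.40 from edgeR). These are ratios of group means and were carried by KO 597, without which they were 0.10 and -0.07. The log2 ratio of the KO to the WT median was -0.76 for Saa2 and -0.11 for Saa1. Saa3 had a log2 fold change of 1.22 ± 0.51 (adjusted p = 0.38 from edgeR), which was carried by KO 532: it was 0.08 without that liver and -0.08 without the 4 livers with a low slope. With gene length removed, the fold changes were 0.66 for Saa3, 1.73 for Saa2 and 1.04 for Saa1.

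Lcn2 had a log2 fold change of 0.86 ± 0.68 (adjusted p = 0.48 from edgeR) and was at -0.26 without KO 597 and at 1.24 without WT 616. Orm2 was at 0.56 ± 0.54 and at 0.01 without KO 532, while its KO median was below the WT median by -1.11 on the log2 scale. Apcs was at 0.27 ± 0.33, and at -0.18 without KO 597. Orm1 (0.26 ± 0.24), Itih4 (0.19 ± 0.16) and Itih3 (0.15 ± 0.11) were between 0 and 0.3, and between 0.03 and 0.10 without KO 597. Crp was at -0.00 ± 0.06, the smallest SE of the 10. With gene length removed, Lcn2 was at 0.74, Orm2 at 0.27, Apcs at 0.14, Orm1 at 0.04, Itih4 at 0.23, Itih3 at 0.20 and Crp at -0.04.

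**Figure D4:**
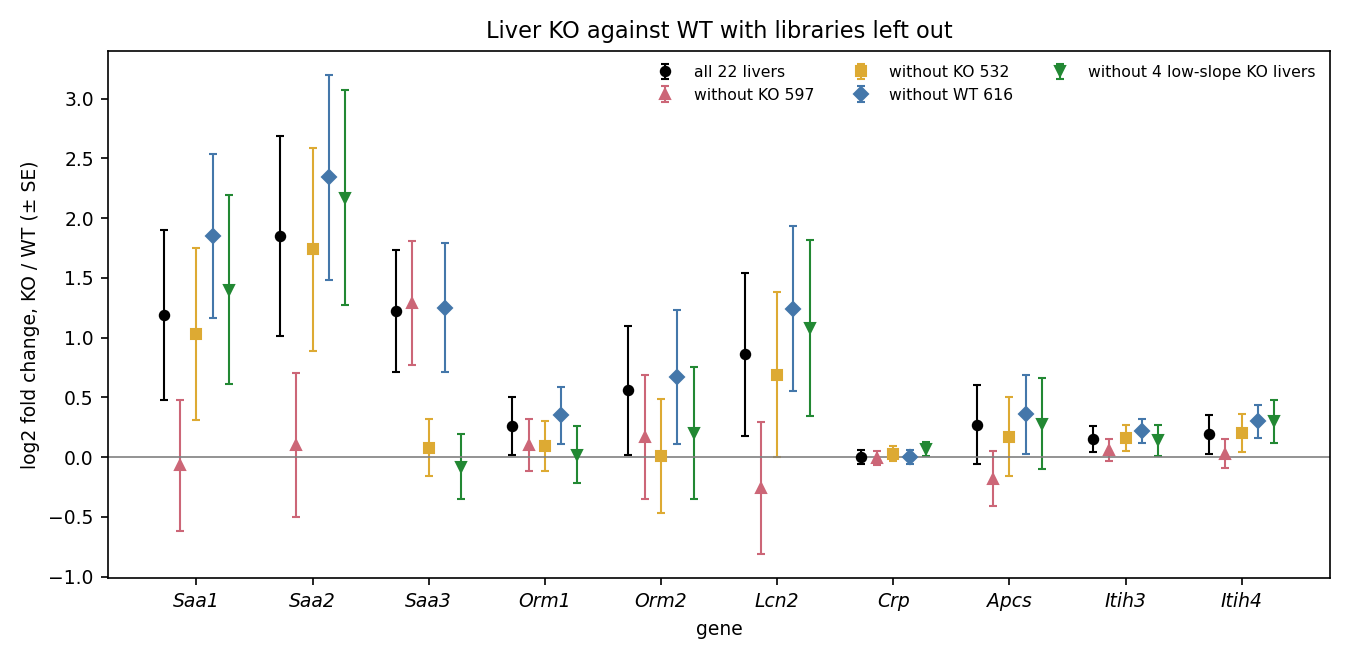
Log2 fold change of KO over WT liver (± SE) for each gene with all 22 livers (black) and with libraries left out. Saa1, Saa2, Lcn2 and Apcs fall to between -0.26 and 0.10 without KO 597, Saa3 and Orm2 fall to 0.08 and 0.01 without KO 532, and Crp lies between -0.02 and 0.07.

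Genes upstream of the response and other acute phase proteins were counted from 3 further lists. Of 28 genes of interleukin 6, interleukin 1 and glucocorticoid signalling, 25 were tested in liver and none had an unadjusted p under 0.05. The smallest p was that of Il6st, the shared signalling chain of interleukin 6 family receptors (log2 fold change -0.28 ± 0.16, 153 CPM in WT and 150 CPM in KO livers by median), followed by Nfkbia, the NF-kB inhibitor (0.25 ± 0.15), and the kinase Jak1 (-0.12 ± 0.08). Of 40 other positive acute phase proteins, 37 were tested, 0 passed the adjusted threshold and 7 were higher at an unadjusted p under 0.05, a p that 12.9% of all liver genes had in either direction, with a median log2 fold change of 0.20. They were led by Hp, haptoglobin (0.39 ± 0.14, adjusted p = 0.38 from edgeR), Serpina1c, an alpha-1-antitrypsin (0.49 ± 0.18), and Ambp, the precursor of bikunin (0.27 ± 0.10).

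Negative acute phase proteins are those whose synthesis falls in inflammation. Of 12 tested, 0 passed the adjusted threshold and 7 were higher at an unadjusted p under 0.05, with a median of 0.20, led by Fetub, fetuin B (0.33 ± 0.11), Gc, the vitamin D binding protein (0.14 ± 0.05), and Ttr, transthyretin (0.30 ± 0.12). The positive and the negative list therefore leaned the same way, as did 7 of 15 hepatocyte markers (median 0.21) and 6 of 12 macrophage and Kupffer cell markers (median 0.25). The hepatocyte list is not separate from the other 2, since it shares Alb, Apoa1, Apoa2, Ttr and Ahsg with the negative list. It also shares Serpina1b, Serpina1d, Fgb and Fgg with the positive list. None of the 5 myocyte, 4 neutrophil and 6 endothelial markers tested in liver and 1 of 8 adipocyte markers, Cidec (-0.86 ± 0.41), had such a p. Without the 4 livers with a low slope, 0 positive and 0 negative acute phase proteins had an unadjusted p under 0.05, with medians of 0.10 and 0.04. Over all genes, 391 of 13210 had such a p in either direction in that fit. The hepatocyte markers were then at 0 of 15 (median 0.05) and the macrophage and Kupffer cell markers at 2 of 12 (median 0.12), while 6 of 6 myocyte markers were lower at that level (median -2.34). Myocyte markers were scarce in liver, with a median sum of 7.25 CPM over all WT and 3.1 CPM over all KO livers. A single WT liver, WT 516, reached 72.1 CPM. With gene length removed the counts were 5 positive and 4 negative acute phase proteins and 1 hepatocyte marker, where 1212 of all 12980 genes had such a p in either direction.

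In muscle, 7 of the 10 genes were too scarce to test. Apcs was counted 0 times in all 11 WT libraries and 2 times in all in the libraries labelled KO. Over the 11 WT libraries together, Saa2 was counted 5 times, Crp 6 times, Orm2 10 times, Saa1 15 times, Itih3 16 times and Itih4 55 times. In the libraries labelled KO the sums were 16 for Saa2, 12 for Crp, 13 for Orm2, 27 for Saa1, 30 for Itih3 and 82 for Itih4. Saa1 was thus at 0.0512 CPM over the WT libraries (exact Poisson 95% interval 0.0287 to 0.0845) and at 0.0916 CPM in those labelled KO (0.0604 to 0.133), intervals that cover counting error only.

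Of the reads in the muscle libraries labelled KO, 14 of 27 of Saa1 and 13 of 16 of Saa2 came from mouse KO 597, whereas no other muscle library had more than 6 of Saa1 or 2 of Saa2. This is the mouse with the highest Saa1 and Saa2 levels in liver. In its muscle library, 10 of 15 hepatocyte markers were at their highest of 22 muscle libraries, among them Alb at 5.48 CPM, against a median of 1.56 CPM in the libraries labelled KO and 0.431 CPM in WT. The part of liver RNA in these reads was not tested.

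The 3 genes that could be tested in muscle were Orm1, Lcn2 and Saa3, which stood at low levels. Orm1 ranged from 1.19 to 5.81 CPM in WT muscle (median 3.35) and from 1.92 to 14.2 CPM in the libraries labelled KO (median 3.27). Lcn2 ranged from 0.518 to 2.65 CPM (median 0.955) and from 0.301 to 1.55 CPM (median 0.924). Saa3 ranged from 0.228 to 1.91 CPM (median 0.518) and from 0.0644 to 2.65 CPM (median 0.717). The labelled groups overlapped for all 3, and the share of all genes that overlap was not computed.

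None of the 3 genes passed an adjusted p of 0.05 between the muscle libraries labelled KO and WT, where 0.00754% of 13266 genes did, and none had an unadjusted p under 0.05, where 8.64% of all genes did. The log2 fold changes were 0.36 for Orm1, 0.07 for Saa3 and -0.44 for Lcn2. Without the library KO 561, Orm1 was at 0.02 and Saa3 at -0.34. KO 561 held the highest Orm1 (14.2 CPM) and Saa3 (2.65 CPM) of all muscle libraries and also 9 of 12 adipocyte markers at their highest, with Adipoq at 219 CPM against 22.2 to 83.1 CPM in WT muscle.

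The adipocyte markers summed to 1987 to 2825 CPM in WT muscle and to 1877 to 5004 CPM in the libraries labelled KO, and none of the 12 was at 0 in all libraries of a group. In a set of 30 relations with marker sums, chosen after values were seen, Orm1 in the libraries labelled KO had r = 0.95 with the adipocyte sum (adjusted p = 0.015) and rho = 0.83 (adjusted p = 0.088), by permutation tests with n = 11, and r = 0.61 once the 2 libraries farthest from the median sum were left out. For WT muscle these were r = 0.59 (adjusted p = 0.15) and rho = 0.63. For Saa3 r was 0.73 and rho 0.58 in the libraries labelled KO, and for Lcn2 r was -0.14 and rho 0.12. Orm1 also had r = 0.89 with the hepatocyte sum and 0.78 with the macrophage sum there, and 0.49 and 0.69 without the 2 farthest libraries. In WT muscle, r of Orm1 was 0.74 with the hepatocyte sum (permutation test, adjusted p = 0.05) and 0.77 with the macrophage sum (adjusted p = 0.041). Without the 2 farthest libraries these were 0.65 and 0.32. Cyp2e1 made up most of the hepatocyte sum in the libraries where it was highest, at 53.6 of 56.7 CPM in KO 561 and 28.7 of 35.6 CPM in KO 611. Alb was at 1.78 and 4.06 CPM in these libraries, so that the sum does not stand for the whole list. None of the 30 relations passed with both r and rho. The part of adipose tissue, of macrophages or of hepatocyte RNA in the Orm1 and Saa3 levels was not tested beyond these values.

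**Figure D5:**
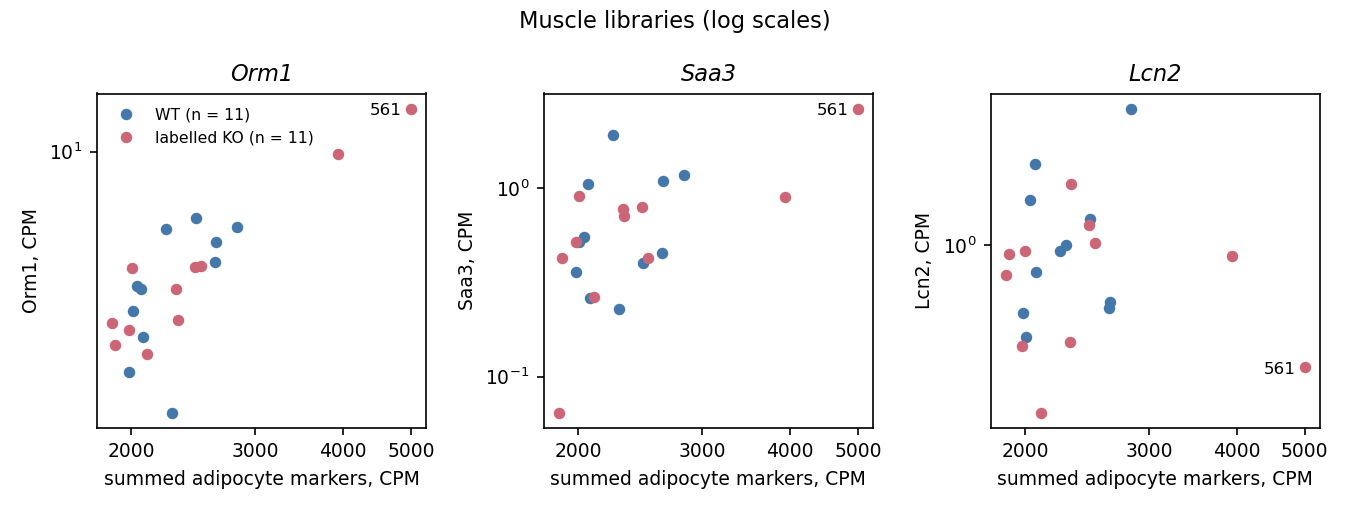
Level of Orm1, Saa3 and Lcn2 in each muscle library against the summed level of 12 adipocyte markers (CPM, log scales), WT in blue and libraries labelled KO in red, 11 each. KO 561, with an adipocyte sum of 5004 CPM, is the highest library for Orm1 and Saa3 and lies low for Lcn2 at 0.416 CPM.

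Few acute phase genes outside the 10 were measurable in muscle. Of the upstream genes, 20 of 28 were tested, with 2 higher and 1 lower at an unadjusted p under 0.05, where 8.64% of all muscle genes had such a p in either direction. They were Il1r1, the interleukin 1 receptor (log2 fold change 0.16 ± 0.06), Lifr (0.11 ± 0.05) and Socs3, a feedback inhibitor induced by Stat3 (-0.61 ± 0.26). None passed the adjusted threshold. Of the other positive acute phase proteins 14 of 40 were tested and 2 were higher at that level, Cp, ceruloplasmin (0.38 ± 0.15), and Itih2 (0.55 ± 0.24), with Steap4 next (0.19 ± 0.10). Of the negative ones 5 of 12 were tested and Alb was higher (1.21 ± 0.51, adjusted p = 0.52 from edgeR), with Rbp4 (0.50 ± 0.36) and Igf1 (0.27 ± 0.21) next. Among the cell type markers, 2 of 3 hepatocyte markers tested (Alb and Cyp2e1) and 1 of 12 adipocyte markers (Cfd, 0.73 ± 0.32) were higher at that level, and none of the 10 myocyte, 7 macrophage, 1 neutrophil and 6 endothelial markers tested.

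Liver and muscle with the same animal numbers were compared to place the genes by tissue. The fit behind the values given here had no term for the mouse, so that the pairing is not used in them. WT and KO are here the groups of the labels, which the Slc16a13 counts go against in muscle. All 10 were higher in liver with an adjusted p under 0.05 in WT mice, where 45.5% of all 13907 genes were, and in KO mice, where 43.9% of 13981 were. The log2 difference in WT and KO mice was 6.48 ± 0.25 and 6.40 ± 0.43 for Orm1, 5.65 ± 0.51 and 6.98 ± 0.81 for Lcn2, and 3.18 ± 0.28 and 4.37 ± 0.66 for Saa3. The adjusted p of these differences was at most 1.4e-06 (edgeR). Saa3 was the least liver-biased, and its lowest KO liver (2.32 CPM) was below its highest muscle library labelled KO (2.65 CPM). In the KO mice without KO 532, its difference was 3.20, and that of Lcn2 was 5.89 without KO 597.

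For the 7 genes near 0 in muscle no fitted fold is given. The lowest WT liver level of Apcs was at least 249-fold higher than the level that a count of 3 in the shallowest muscle library would give. The lowest WT liver level of Itih4 was 4139.7 times its highest WT muscle level, that of Itih3 was 4997 times and that of Saa1 218 times. In mice labelled KO these ratios were 2867, 3315 and 76.3.

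The difference between tissues in KO against WT was tested as an interaction. It takes the muscle groups from labels that the Slc16a13 counts go against, so that its muscle side is a difference between labelled groups and may not be one of genotype. None of the 10 genes passed an adjusted p of 0.05, where 0.00678% of 14739 genes did, and none had an unadjusted p under 0.05, where 16.2% of genes did. Among the 3 genes measurable in both tissues, the interaction on the log2 scale was 1.32 ± 0.93 for Lcn2, 1.17 ± 0.73 for Saa3 and -0.09 ± 0.43 for Orm1. With the mouse as a block it was 0.44 for Lcn2, 0.40 for Saa3 and -0.02 for Orm1. Without the 4 mice with a low liver slope it was -0.41 for Saa3.

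Levels in liver and muscle of the same mouse, as paired and grouped by the labels, were compared for the same 3 genes. In WT mice, r was 0.62 for Orm1 (adjusted p = 0.24; rho = 0.62), 0.45 for Saa3 and 0.43 for Lcn2 (permutation tests, 6 relations, n = 11). In mice labelled KO, r was -0.15 for Orm1, -0.08 for Saa3 and 0.29 for Lcn2 (rho = 0.59). None of the 6 passed an adjusted p of 0.05 by either measure.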

How the data were processed

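RNA-Seq libraries of liver and muscle (poly(A), strand-specific, single-end 85-base reads) were compared by genotype and tissue as the labels give them, 11 per group. Values were deposited as raw counts per gene and as RPKM computed by the authors. The aligner, the counting of shared reads and the genome build are not given in the sources used here. Of 38202 gene rows, 36340 matched a symbol by Ensembl ID, and 0 columns were left unmapped. Depth was 20150712 to 35218243 counted reads per library. Intervals cover counting error only.

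Counts were tested with edgeR 4.0.16 (R 4.3.3; TMM, filterByExpr, quasi-likelihood test, Benjamini-Hochberg over all genes, threshold 0.05). CPM used TMM library sizes, and correlations used log2 CPM with a prior count of 2 and scipy 1.17.1. Alternatives were DESeq2 1.42.0, limma 3.58.1 (voom, and log2(RPKM + 0.1 or 1)), library size alone, no filter, removal of gene length, a hepatocyte covariate, a mouse block and left-out libraries. On simulated liver counts (13005 genes, 200 changed at a log2 fold of 1) the test recovered 93%, with 9 other calls. That share is over all the changed genes and was not computed for genes as variable as Saa1, Saa2, Lcn2 and Orm2. In liver their fold changes had SEs of 0.71, 0.84, 0.68 and 0.54, and Saa2 was not called at 1.85. The simulation therefore does not tell whether a log2 fold of 1 would be found for them.

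Liver and muscle were paired by the animal number in the labels. The correlation of paired deviations from the group means had a median of 0.11 in WT and 0.10 in KO mice over 11607 genes, was over 0.1 in 6 of 11 mice of each genotype, and was highest with the mouse's own other tissue in 4 WT and 2 KO mice. Same-mouse relations and the mouse block rest on the labels. No libraries were duplicates (chi-square per degree of freedom at least 4.47). Liver-to-muscle relations were adjusted over the 6 that could be computed. All 10 genes are named whatever their values, with the 3 genes of smallest p from each further list and the 5 genes most like Saa1 and Lcn2. The members and all lists were chosen with earlier results of these data known.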

Additional observations from a re-analysis of the deposited data

How the results depend on the processing

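The number of the 10 genes called was the same under every alternative run for the genotype, tissue and interaction comparisons, also with the mouse as a replicate block (10 and 10 in the tissue comparisons, 0 in the interaction). Only Orm1 (1 of 9, against 4) was correlated with Saa1 in KO livers without the 4 low-slope livers, where n fell to 7, while 5 passed with gene length removed and with RPKM. The single estimates that changed sign, none of them called, were as follows. In liver they were Saa3 without low-slope livers (-0.08), Orm2 with limma-voom (-0.01) and RPKM (-0.05 at either pseudocount), Lcn2 with DESeq2 (-0.27) and RPKM (-0.03 at either), Apcs with RPKM (-0.06 and -0.05), Crp with DESeq2 (0.01) and without low-slope livers (0.07), Il6st without low-slope livers (0.01), and Jak1 with gene length removed (0.04) and without low-slope livers (0.02). DESeq2 replaces outlying counts by construction, which touched 2 counts of Saa1, 2 of Saa2, 1 of Saa3 and 1 of Lcn2. Leaving out 1 library gave ranges of -0.07 to 1.85 for Saa1, -0.26 to 1.24 for Lcn2, -0.18 to 0.38 for Apcs and -0.02 to 0.03 for Crp. In muscle, Saa3 was at -0.11 with limma-voom, -0.02 with RPKM at a pseudocount of 0.1 and -0.34 to 0.31 with 1 library left out. With the hepatocyte covariate, Saa3 was at -0.56, Orm1 at -0.37, Rbp4 at -0.36 and Igf1 at -0.13. That covariate is the summed hepatocyte markers, of which Cyp2e1 was 53.6 of 56.7 CPM in KO 561, so that it does not stand for the whole list. In the interaction, limma-voom gave -0.08 for Saa1, -0.03 for Saa2 and -0.31 for Orm2, and Saa3 was at -0.41 without low-slope mice. Crp had r = 0.08 with Saa1 in KO livers with log2(RPKM + 0.1) and 0.33 without low-slope livers. Saa3 in liver and muscle of mice labelled KO had r = 0.08 with gene length removed and 0.00 without low-slope livers. The cause of these changes was not tested. Over all genes, DESeq2 called 6 in liver against 3, several alternatives called 0 in muscle against 1, and library size alone called 3 in the interaction against 1. Counts near 0 limit 7 of the genes in muscle.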
